A study of Mus musculus with 155 samples.

Results

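The genes described here are 35 collagen, matrix, contractile and mesenchymal genes that fibroblasts are known to express. They were taken by name from a list that was chosen with earlier results of these data known. All 35 were found among the 55471 genes of the count tables. The list holds 5 fibrillar collagens, 3 chains of collagen VI, 3 small proteoglycans, 7 matrix glycoproteins, 4 genes of matrix cross-linking and turnover, 2 contractile proteins, 2 CCN proteins, 2 S100 proteins, 2 surface proteins, 4 mesenchymal transcription factors and 1 secreted Wnt antagonist. Their levels are given as CPM, the counts of a gene per 1000000 counts of its library, scaled between libraries. They are not divided by gene length, so that levels are compared between libraries and not between genes.

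The data are 42 RNA-seq libraries of KH2 cells, a mouse embryonic stem cell (ESC) line in which doxycycline (Dox) switches on an extra copy of the histone variant H3.3 with a SNAP-HA tag. The extra copy is WT-H3.3, H3.3K27M (the substitution of diffuse midline glioma, known to inhibit PRC2, the complex that trimethylates lysine 27 of histone H3) or H3.3K27L (a substitution known to leave PRC2 active). Every line keeps its endogenous H3.3 genes, and every library here was made from cells given Dox, so WT-H3.3 with Dox is the control. In ESCs, the groups are WT-H3.3, WT-H3.3 with GSK343 (an inhibitor of the PRC2 methyltransferase), H3.3K27M and H3.3K27L, and the 8 libraries of each comprise 2 replicates at 4, 8, 24 and 72 h of Dox. RA-treated cells, kept in retinoic acid for 4 days without LIF or 2i and labelled as ESC-derived neural progenitors, have 1 library for each of the 3 lines at 24 h and at 72 h. Oligodendrocyte progenitor cell (OPC) cultures were made from WT-H3.3 and H3.3K27M ESCs through embryoid bodies, retinoic acid and purmorphamine, and have 1 library for each line at 24 h and at 72 h. Each line is a selected clone, the OPC cultures were not sorted in the methods, and the methods give 2 biological replicates made weeks apart. For OPC cultures the labels number the 24 h libraries replicate 2 and those of 72 h replicate 1, while the count table calls all 4 replicate 2, so whether the 2 Dox times come from 1 differentiation or 2 is unclear. A difference between lines can therefore be one between clones or between differentiations, and these cannot be told apart.

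Fibrillar collagens are secreted as procollagen trimers, cut outside the cell, assembled into fibrils and cross-linked by lysyl oxidases. Fibronectin, tenascins, thrombospondins and small leucine-rich proteoglycans bind to the fibrils and to cells, and matrix metalloproteinases and their inhibitors govern turnover. Twist, Snail and Prrx factors are known for their roles in mesenchymal cells, and smooth muscle actin with transgelin marks contractile ones.

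RefSeq promoters (GRCm38.p6, from 250 bases before to 50 bases after a gene's start) were held for 21 of the 35 genes. Of these, 5 are printed, since their genes represent the patterns described below: a fibrillar collagen, a contractile protein, a CCN protein and a mesenchymal factor that were lower in H3.3K27M OPC cultures, and Sfrp2, which was not. Capitals mark matches, on either strand, to GGAATG (the core recognised by TEAD factors), TGANTCA (AP-1), TATAAA (the TATA box) or GGGCGG (the GC box). Col3a1 (chr1:45311288-45311587, plus strand), Acta2 (chr19:34255324-34255623, minus strand), Cyr61 (named Ccn1 in RefSeq, chr3:145649936-145650235, minus strand), Twist2 (chr1:91801211-91801510, plus strand) and Sfrp2 (chr3:83766071-83766370, plus strand) read as follows.
Col3a1: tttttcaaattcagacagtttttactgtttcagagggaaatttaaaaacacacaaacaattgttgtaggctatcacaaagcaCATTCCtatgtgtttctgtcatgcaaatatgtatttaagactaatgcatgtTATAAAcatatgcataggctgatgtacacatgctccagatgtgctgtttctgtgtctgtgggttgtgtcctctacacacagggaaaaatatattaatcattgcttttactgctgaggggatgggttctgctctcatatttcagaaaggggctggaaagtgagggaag
Acta2: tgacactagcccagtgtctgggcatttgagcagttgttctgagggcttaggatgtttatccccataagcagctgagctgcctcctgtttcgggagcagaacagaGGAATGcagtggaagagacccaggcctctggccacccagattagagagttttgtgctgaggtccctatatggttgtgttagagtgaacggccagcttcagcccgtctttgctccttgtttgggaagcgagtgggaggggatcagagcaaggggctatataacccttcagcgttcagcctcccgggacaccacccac
Cyr61: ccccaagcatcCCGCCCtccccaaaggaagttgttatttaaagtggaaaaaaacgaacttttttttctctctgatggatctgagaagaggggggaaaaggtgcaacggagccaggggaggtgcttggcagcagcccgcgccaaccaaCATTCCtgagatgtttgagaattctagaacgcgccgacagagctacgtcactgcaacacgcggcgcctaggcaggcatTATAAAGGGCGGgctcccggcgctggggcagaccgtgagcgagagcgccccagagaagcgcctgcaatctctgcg
Twist2: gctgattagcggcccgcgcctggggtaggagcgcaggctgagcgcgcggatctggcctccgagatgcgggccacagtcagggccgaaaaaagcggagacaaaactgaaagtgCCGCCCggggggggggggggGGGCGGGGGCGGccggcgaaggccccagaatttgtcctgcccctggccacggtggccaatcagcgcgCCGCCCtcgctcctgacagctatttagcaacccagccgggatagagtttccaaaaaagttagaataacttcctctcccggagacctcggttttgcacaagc
Sfrp2: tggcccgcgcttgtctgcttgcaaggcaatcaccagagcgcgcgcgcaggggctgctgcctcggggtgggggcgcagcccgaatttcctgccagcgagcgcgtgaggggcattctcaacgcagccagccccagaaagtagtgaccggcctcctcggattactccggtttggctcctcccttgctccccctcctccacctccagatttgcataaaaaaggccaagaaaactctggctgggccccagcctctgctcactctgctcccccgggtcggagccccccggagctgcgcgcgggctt

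The 21 genes have 24 promoters in RefSeq, since Col6a2, Postn and Tnc have 2 each. GGAATG stood in 5 of the 24 (of Acta2, Col3a1, Col6a2, Cyr61 and Prrx1), against 14.66% of all 32851 RefSeq promoters of the same length. The CArG box, the motif of serum response factor, was searched only as an exact CCWWWWWWGG (W, A or T). It was in 0 of 24, against 1.63% of all. Sequences 1 base off this pattern were not counted, such as ccctatatgg and ccttgtttgg in the printed Acta2 promoter. TGANTCA was in 1 (Col6a1, against 7.81%), TATAAA in 8 (of 7 genes, Col3a1, Cyr61, Postn, S100a4, Thbs2, Tnc and Twist1, against 13.62%) and GGGCGG in 13 (of 11 genes, against 35.66%). In Cyr61 the TATAAA match, 25 to 20 bases before the start, is followed directly by GGGCGG. Of the 5 printed promoters, Sfrp2 held none of these motifs. Neither did those of Col6a3 and S100a6, which are not printed and whose genes were called lower in H3.3K27M OPC cultures. A match is a run of letters and not a shown binding site. Counting for each gene its promoter with the most CpG, the 21 genes held a median of 10 CpG (0 to 34), and 38.1% of them held more than 14, against a median of 8 and 37.1% over all genes of the table.

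Total counts ran from 7499258 to 12387113 in the 4 OPC libraries, from 2239137 to 22269533 in the 6 RA libraries and from 68378 to 21161392 in the 32 ESC libraries, the lowest being H3.3K27L at 72 h, replicate 2. Olig2, which marks the oligodendrocyte lineage, averaged 336 CPM in WT-H3.3 and 1098 CPM in H3.3K27M OPC cultures, whereas Sox10 averaged 2.93 and 0.369 CPM and Pdgfra 21.5 and 0.747 CPM. Of 9 tested markers of this lineage, 6 were called higher (12.9% of all genes were) and 2, Sox10 and Pdgfra, lower in H3.3K27M (15.0% of all genes were). In RA-treated cells, 10 neuronal markers summed to 59.8 to 88.1 CPM and 12 markers of extraembryonic endoderm to 533 to 2411 CPM, against 0 to 20.0 CPM for the latter in ESCs.

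Matrix and fibroblast genes were strongly expressed in the WT-H3.3 OPC cultures, and most of them were far lower in the H3.3K27M cultures. A gene was called where its adjusted p-value was under 0.05 and its fold change above 2 or below 0.5. Of the 34 members tested (Mmp2, on chromosome 8, was left out with that chromosome and is given on its own), 29 were called lower, 2 higher (Fbln2 and Thy1) and 3 were not called (Fbn1, Tnc and Sfrp2). Across all 12467 genes tested, 15.0% were called lower and 12.9% higher. The members were chosen with earlier results of these data known, so their distance from these shares is a description and no independent support. Members near absent from H3.3K27M passed the filter on counts only through WT-H3.3, so their direction was set in advance. With at least 10 counts required in every library, 19 members were tested, of which 15 were lower and 2 higher. Of 10788 genes then tested, 2309 were called in either direction. The median log2 fold change of the 34 members, H3.3K27M over WT-H3.3, was -4.48, and that of all genes was 0.00063. Both H3.3K27M libraries lay below both WT-H3.3 libraries for 32 of 35 members and above them for 3, as was the case for 39.5% and 37.0% of all genes. The 35 members summed to 5608 and 5967 CPM in WT-H3.3 and to 1243 and 1256 CPM in H3.3K27M. Without Tnc these sums were 4450 to 4713 CPM and 269 to 331 CPM. With RNA of whole cultures, fewer cells of a type and less RNA per cell cannot be told apart.

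**Figure D1:**
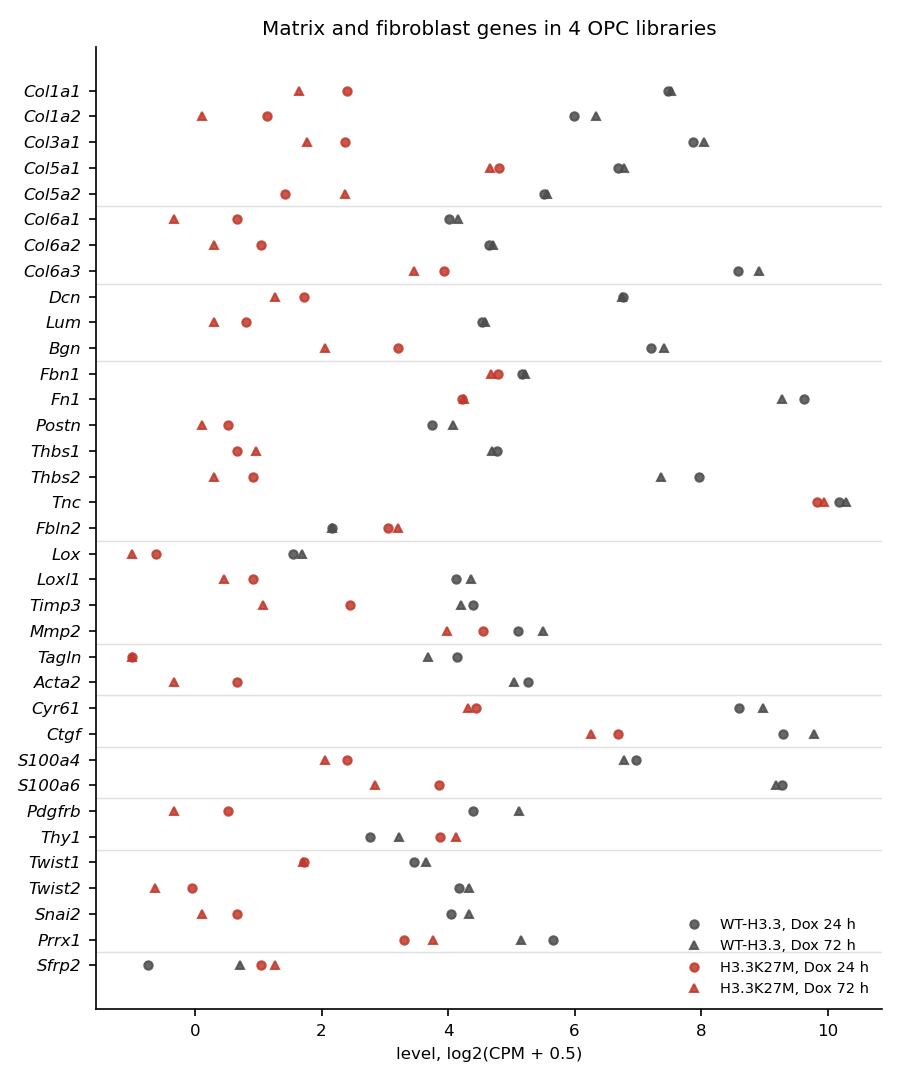
Level of each of the 35 genes, as log2(CPM + 0.5) on the horizontal axis, in the 2 WT-H3.3 and the 2 H3.3K27M OPC libraries, 1 point a library; grey lines part the gene groups. The points of H3.3K27M lie to the left of those of WT-H3.3 for 32 genes, and to the right for Fbln2, Thy1 and Sfrp2.

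All 5 fibrillar collagens fell. Col1a1, a chain of type I collagen, stood at 178 CPM (24 h) and 184 CPM (72 h) in WT-H3.3 and at 4.82 and 2.62 CPM in H3.3K27M (log2 fold change -5.59, SE 0.23, adjusted p = 4.0e-08). Its partner Col1a2 stood at 62.9 and 80.2 against 1.71 and 0.582 CPM (log2 -5.95). For Col3a1, the type III chain of stretchable tissues, the levels were 233 and 262 against 4.66 and 2.91 CPM (log2 -6.01). Col5a1 and Col5a2 encode chains of type V collagen, which starts fibrils. Col5a2 stood at 45.1 and 47.0 against 2.18 and 4.66 CPM (log2 -3.71). Col5a1 stood at 102 and 110 against 27.3 and 24.9 CPM (log2 -2.0), the smallest change of the 5.

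The 3 collagen VI chains, which form beaded filaments around cells, also fell together. Col6a1 stood at 15.6 and 17.3 against 1.09 and 0.291 CPM (log2 -4.55), and Col6a2 at 24.7 and 25.7 against 1.55 and 0.728 CPM (log2 -4.44). Col6a3 stood at 382 and 483 against 14.8 and 10.5 CPM (log2 -5.08). The 3 small leucine-rich proteoglycans, which bind collagen fibrils, did likewise. Decorin (Dcn) stood at 108 and 107 against 2.80 and 1.89 CPM (log2 -5.50). Lumican (Lum) stood at 22.6 and 23.6 against 1.24 and 0.728 CPM (log2 -4.52), and biglycan (Bgn) at 148 and 170 against 8.70 and 3.64 CPM (log2 -4.67).

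Matrix glycoproteins split. Fibronectin (Fn1), which links cells to the matrix, stood at 791 and 619 CPM in WT-H3.3 and at 18.2 and 18.6 CPM in H3.3K27M (log2 -5.23, SE 0.17, adjusted p = 1.9e-08). Thbs2, a thrombospondin of the matrix, stood at 248 and 164 against 1.40 and 0.728 CPM (log2 -7.57). Thbs1 stood at 26.7 and 25.4 against 1.09 and 1.46 CPM (log2 -4.31), and periostin (Postn) at 13.0 and 16.4 against 0.932 and 0.582 CPM (log2 -4.24). These 4 passed the test. Tenascin C (Tnc), which radial glia are also known to express, did not: it stood at 1159 and 1255 CPM in WT-H3.3 and at 912 and 987 CPM in H3.3K27M (log2 -0.33, SE 0.13, adjusted p = 0.060). Fibrillin 1 (Fbn1), the scaffold of microfibrils, stood at 35.3 and 36.6 against 27 and 25.2 CPM (log2 -0.44, SE 0.17, adjusted p = 0.044), a change under 2-fold. Fibulin 2 (Fbln2), which bridges elastic fibres and basement membranes, went the other way, at 3.97 CPM in both WT-H3.3 libraries and 7.77 and 8.73 CPM in H3.3K27M (log2 1.08, SE 0.28, adjusted p = 0.0084).

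Lysyl oxidase (Lox) was counted 49 times in the WT-H3.3 libraries together and once in those of H3.3K27M, so that the ratio of the scaled counts, 34.0, has a wide counting interval (95%, 5.83 to 1372). Its relative Loxl1 stood at 16.9 and 20.2 against 1.40 and 0.873 CPM (log2 -4.0). Timp3, an inhibitor of metalloproteinases, stood at 20.6 and 18 against 4.97 and 1.60 CPM (log2 -2.54). The metalloproteinase Mmp2 stood at 34.1 and 45 against 22.8 and 15.3 CPM, which came to -1.03 on the log2 scale (SE 0.23, adjusted p = 0.0034) when chromosome 8 was kept, a chromosome of which the study notes a possible duplication in all its clones.

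Both contractile genes fell. Tagln (transgelin) was at 17.1 and 12.4 CPM in WT-H3.3, from 286 counts, and had 0 counts in both H3.3K27M libraries. Against a floor of 3 counts over the H3.3K27M group it was at least 66.2-fold lower. Acta2, smooth muscle actin, stood at 37.9 and 32.5 against 1.09 and 0.291 CPM (log2 -5.65). Of the CCN proteins, which are secreted and known as targets of YAP and TEAD, Cyr61 stood at 387 and 503 against 21.3 and 19.5 CPM (log2 -4.43) and Ctgf at 625 and 882 against 103 and 76.3 CPM (log2 -3.06). The calcium-binding proteins S100a4 and S100a6 stood at 124 and 110 against 4.82 and 3.64 CPM and at 623 and 581 against 14 and 6.70 CPM (log2 -4.77 and -5.85).

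Surface proteins moved in opposite directions. Pdgfrb, the PDGF receptor of pericytes and fibroblasts, stood at 20.6 and 34.2 CPM in WT-H3.3 and at 0.932 and 0.291 CPM in H3.3K27M (log2 -5.45). Thy1, a surface protein of fibroblasts and also of neurons, stood at 6.29 and 8.84 CPM in WT-H3.3 and at 14.1 and 16.9 CPM in H3.3K27M (log2 1.06, SE 0.25, adjusted p = 0.0048). All 4 mesenchymal transcription factors fell, to unequal degrees. Twist2 stood at 17.5 and 19.7 against 0.466 and 0.146 CPM (log2 -5.86), and Snai2 at 16 and 19.6 against 1.09 and 0.582 CPM (log2 -4.38). Twist1 stood at 10.5 and 12.1 against 2.80 and 2.77 CPM (log2 -2.0) and Prrx1 at 49.9 and 34.9 against 9.32 and 13.1 CPM (log2 -1.89). Sfrp2, a secreted Wnt antagonist, stood at 0.0968 and 1.13 against 1.55 and 1.89 CPM (log2 1.56, SE 0.73, adjusted p = 0.095). With Dox time as a block its adjusted p was 0.032, so that 3 members were called higher, against 12.9% of all genes. It was also called when the 72 h library of WT-H3.3 was left out (log2 3.98). Thy1 was no longer called when the 24 h library of WT-H3.3 was left out (log2 0.81) or that of H3.3K27M at 72 h (log2 0.94), nor Fbln2 without the former (adjusted p = 0.051).

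The 2 Dox times gave like ratios. With 0.5 CPM added, 32 members had a log2 ratio below 0 and 3 above 0 at each time, and the sign was the same for 35 of 35. Equal signs follow where the groups do not overlap, as was the case for 39.5% (lower) and 37.0% (higher) of all genes. The median was -3.73 at 24 h and -4.29 at 72 h, with 29 members more negative at 72 h. The 2 ratios of a gene were within 1 log2 unit for 29 members, with a median gap of 0.748 and the widest gap, 1.57, for Pdgfrb. There is 1 library for each line and time, so the difference between times was not tested. Among the 21 genes with a promoter, the 8 with more than 14 CpG had a median log2 fold change of -2.27 (-5.86 to 1.56), and the 13 with fewer one of -4.77 (-7.57 to 1.08). The promoters printed above show both kinds: Col3a1, with 0 CpG, fell by 6.01 and Twist2, with 25, by 5.86 on the log2 scale, while Sfrp2, with 22, was not called.

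**Figure D2:**
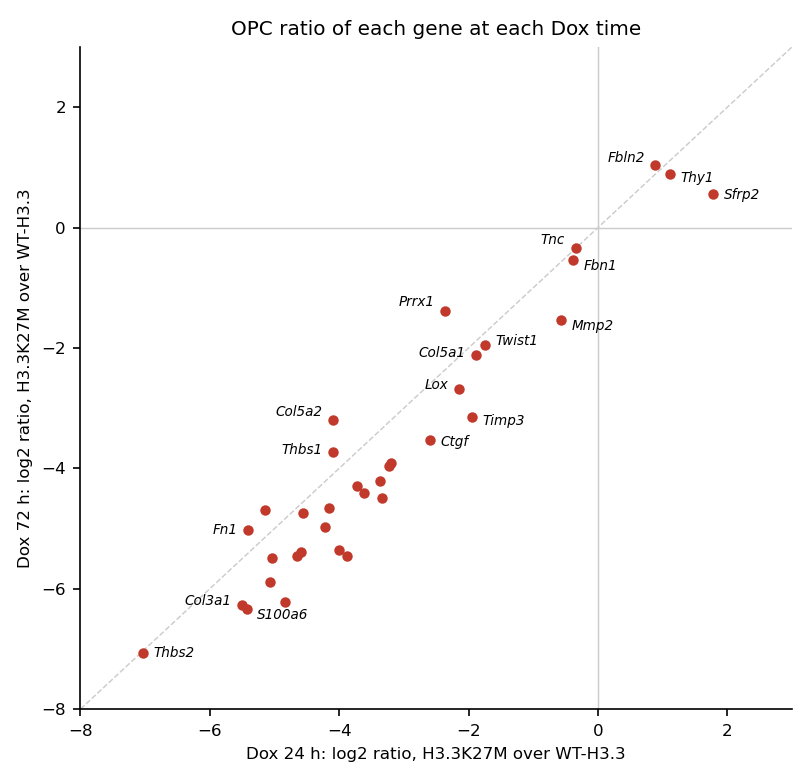
Log2 ratio of H3.3K27M over WT-H3.3 OPC cultures for each of the 35 genes (0.5 CPM added), at 24 h of Dox on the horizontal and at 72 h on the vertical axis; the diagonal marks equal ratios. The same 3 genes lie above 0 at each time, Tnc and Fbn1 lie near 0, and 29 genes lie below the diagonal.

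Genes of the same pathways that are not in the list mostly moved the same way. For comparison, 15.0% of all genes were called lower and 12.9% higher. Of 13 genes of TGF-beta signalling tested, 11 were called lower and 0 higher. Of 17 collagen-processing enzymes 10 were lower, of 10 other collagens 7, of 16 actomyosin genes 9, of 13 basement membrane genes 8 (and 1 higher) and of 11 YAP and TEAD genes 7 (and 1 higher). Elastic fibre genes divided evenly, with 3 higher and 3 lower of 10. Those with the lowest adjusted p were the laminin chain Lamb1 (569 CPM on average in WT-H3.3, 90.7 CPM in H3.3K27M, log2 -2.63), Col18a1 (99.8 and 4.63 CPM, log2 -4.41) and Amotl2 (125 and 12.7 CPM, log2 -3.28). In the other direction they were elastin (Eln, 1.54 and 31.9 CPM, log2 4.40), Tead2 (99.7 and 298 CPM, log2 1.60) and agrin (Agrn, 262 and 658 CPM, log2 1.35).

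Markers of other cells moved in both directions. Over all genes 15.0% were called lower and 12.9% higher, and counts from short lists can lie near these shares. Some genes stand in several lists: Pdgfra among fibroblast, extraembryonic endoderm and OPC markers, and Sox10 among OPC and neural crest markers. The neural crest list also holds the member Snai2, so the lists do not count separate genes. Of 15 other fibroblast and mesenchymal markers tested, 8 were lower and 1 higher, and the 27 of the list summed to 2968 to 3549 CPM in WT-H3.3 and 2236 to 2854 CPM in H3.3K27M. The highest of them, Lgals1, which many cell types express, averaged 2377 and 1917 CPM, and Tcf21, Foxc2 and Foxd1 were at 0 in H3.3K27M. Of 12 extraembryonic endoderm markers 7 were tested, and all of these were lower. The list summed to 132 to 162 against 24.9 to 28.0 CPM, with Cubn, Afp and Apoa1 at 0 in H3.3K27M. A gene near absent from 1 line passes the filter on counts only through the other line, which sets the direction of any call in advance. Endothelial markers were lower for 4 of 6 and summed to 65.4 to 89.1 against 13.0 to 21.3 CPM, Tek and Erg being at 0 in H3.3K27M and Tie1 in both lines. Pericyte and smooth muscle markers were lower for 3 of 6 (181 to 239 against 164 to 197 CPM, with Cnn1 at 0 in H3.3K27M and Mcam the highest), and neural crest and Schwann markers for 5 of 7 (870 to 1074 against 858 to 992 CPM, Sox9 the highest). Of the 10 cardiac and skeletal muscle markers none had enough counts to be tested, and the list summed to at most 2.72 CPM. Of 10 pluripotency markers only 3 were tested, of which 2 were lower and 1 higher. The list summed to 113 to 125 against 23.8 to 25.2 CPM, and Pou5f1 was at 0 in both lines. In WT-H3.3 OPC cultures 9 of 9 tested pluripotency markers were lower than in ESCs (median log2 -13.4), as were 37.4% of all genes. The sum is thus no measure of remaining pluripotent cells. Markers of the OPC and oligodendrocyte lineage were higher for 6 and lower for 2 of 9 (811 to 834 against 2334 to 2722 CPM). Those of neurons were higher for 4 and lower for 5 of 9 (902 to 903 against 2056 to 2279 CPM) and those of astrocytes and radial glia higher for 2 and lower for 3 of 10 (4630 to 5030 against 4678 to 6666 CPM, Fabp7 the highest). The part of the cell mix in the fall of the matrix genes was not tested.

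Most members were near absent from WT-H3.3 ESCs and rose in both differentiated states. WT-H3.3 OPC cultures were compared with the 4 WT-H3.3 ESC libraries of the same Dox times. Here 31 members were called higher (31.2% of all genes were), 1 lower (Sfrp2, against 37.4% of all genes) and 2 were not called. The median log2 fold change was 5.85, against -0.19 over all genes. Several members were almost absent from WT-H3.3 ESCs. Tnc had 23044 counts in OPC cultures and 1 in ESCs (95% interval of the ratio 8967 to 1973700). S100a4 and Twist2 had 0 counts in these ESCs and were at least 1630-fold and 257-fold higher in OPC cultures, against a floor of 3 counts over the group. Fn1, in contrast, was abundant in both, with a mean of 705 CPM in OPC cultures and 1316 CPM in ESCs (log2 -0.99, SE 0.28, adjusted p = 0.0056, just under a 2-fold change). It was called lower without a filter on low counts, without replicate 1 of the ESC libraries at 24 or 72 h and without the OPC library of 24 h (log2 -1.03 to -1.19). Sfrp2 averaged 0.615 and 2.97 CPM (log2 -2.44, SE 0.66, adjusted p = 0.0040), and Thy1 7.57 and 4.77 CPM (log2 0.54, SE 0.34, adjusted p = 0.16). Without the OPC library of 24 h the adjusted p of Sfrp2 was 0.063 (log2 -1.5).

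RA-treated WT-H3.3 cells, set against the same ESC libraries, had 24 of 27 tested members called higher (19.5% of all genes were) and 0 lower. Not called were Fn1 (log2 -0.94, SE 0.56, adjusted p = 0.22), Thy1 (log2 -0.94, SE 0.60, adjusted p = 0.26) and Sfrp2 (log2 0.01, SE 0.56, adjusted p = 0.99). Acta2 averaged 332 CPM in RA-treated cells and 0.317 CPM in ESCs (log2 10.15, SE 0.56), and Col3a1 123 and 0.230 CPM (log2 9.22, SE 0.94). Col6a3 and Lum, which OPC cultures expressed, averaged 0.388 and 0.0969 CPM in RA-treated cells and were not tested. Without the RA library of 24 h, Fbln2 (log2 0.23) and Timp3 (log2 1.51) were no longer called and Fn1 was called lower (log2 -2.22, adjusted p = 0.0022). Culture, time, library and possibly library kit go with cell state, and their parts cannot be told apart.

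**Figure D3:**
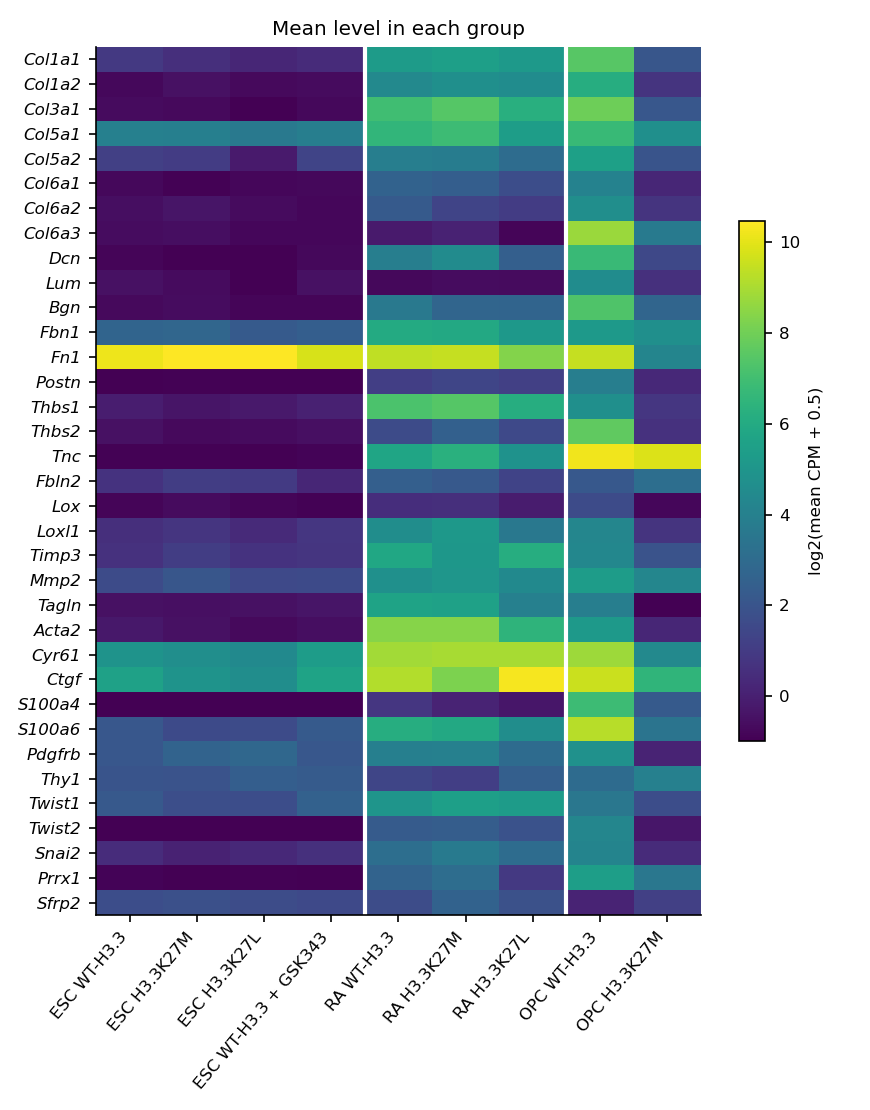
Mean level of each of the 35 genes, as log2(mean CPM + 0.5) by colour, in the 4 ESC groups (8 libraries each), the 3 RA groups (2 each) and the 2 OPC groups (2 each). Fn1 is bright in all 4 ESC groups, and the column of H3.3K27M OPC cultures is darker than its WT-H3.3 neighbour in all rows but those of Fbln2, Thy1 and Sfrp2.

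Other pathway genes followed in part. In WT-H3.3 OPC cultures against ESCs the lowest adjusted p belonged to Tgfb2 (157 against 0.513 CPM), Fbn2 (155 against 1.36 CPM) and Col16a1 (72.3 against 0.608 CPM) among those higher, and to Pcolce2 (2.62 against 135 CPM), Nid2 (1.94 against 324 CPM) and Vcl (1.29 against 77.7 CPM) among those lower. In RA-treated cells they were Fbn2, Loxl2 and Tgfb2 (206, 126 and 57.2 CPM on average) and, lower, Pcolce2 and Pcolce (2.05 and 35.6 CPM). Vinculin (Vcl) is known to be expressed in most adherent cells.

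In RA-treated cells most members differed between the Dox times, with fibrillar collagens lower at 72 h. Both CCN genes and S100a6 were higher, but the members called higher were near the share of all genes. Compared within line, the 3 libraries of 72 h against the 3 of 24 h gave 5 members called higher (19.6% of all genes were), 16 lower (22.5% of all genes were) and 7 not called, of 28 tested. The median log2 fold change of the members was -1.47, against -0.06 over all genes. The 5 were Tagln, Cyr61, Ctgf, S100a6 and Twist2. Ctgf stood at 165, 139 and 223 CPM at 24 h (in the order WT-H3.3, then H3.3K27M, then H3.3K27L) and at 963, 454 and 2340 CPM at 72 h (log2 2.85, SE 0.25, adjusted p = 8.0e-07). Tagln stood at 12.6, 16 and 11.2 CPM and then at 88.1, 78.9 and 20.0 CPM (log2 2.37, SE 0.29). For Cyr61 the levels were 229, 383 and 332 CPM and then 711, 610 and 661 CPM (log2 1.39, SE 0.18). All 3 lines moved up for these genes, and the groups did not overlap. The share of all genes without overlap was not counted.

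The fibrillar collagens and matrix glycoproteins were lower at 72 h. Fn1 stood at 1059, 1227 and 565 CPM at 24 h and at 261, 189 and 87.1 CPM at 72 h (log2 -2.17, SE 0.17, adjusted p = 4.3e-07). Thbs1 stood at 267, 303 and 117 CPM and then at 27.3, 43.5 and 22.1 CPM (log2 -2.53, SE 0.17). Timp3 had the largest fall among the called members, from 111, 58.5 and 127 CPM to 3.77, 7.71 and 13.3 CPM (log2 -3.22, SE 0.26). Col3a1 went from 177, 296 and 126 CPM to 69.6, 57.0 and 23.1 CPM (log2 -1.74, SE 0.20). In all, 5 of 5 fibrillar collagens, 6 of 6 matrix glycoproteins and 2 of 2 collagen VI chains tested fell, along with Timp3, Prrx1 and Sfrp2. Prrx1 was no longer called without the line as a block or without either H3.3K27M library (log2 -1.22 and -1.18). Col1a1 and Col1a2 fell under the 2-fold limit without either H3.3K27L library (log2 -0.69 to -0.79). Mmp2, with chromosome 8 kept, gave log2 -1.36 (SE 0.20, adjusted p = 7.0e-05).

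Dcn, Bgn, Loxl1, Acta2, Pdgfrb, Twist1 and Snai2 were tested and not called. Acta2 went from 286 to 378 CPM in WT-H3.3, from 439 to 236 CPM in H3.3K27M and from 142 to 33.7 CPM in H3.3K27L, so its direction differed between lines, which was not tested. It was called lower without either WT-H3.3 library (log2 -1.11 and -1.03). Over all 35 members, 6 were higher at 72 h in all 3 lines, 25 lower in all 3 and 4 mixed (Dcn, Loxl1, Acta2 and Snai2). The share of all genes that moved the same way in all 3 lines was not counted. The lowest adjusted p among other pathway genes belonged to Ankrd1, Tagln2 and Cnn3 (higher, log2 2.53, 1.47 and 1.10) and to Nid2, Vcl and Lama5 (lower, log2 -5.29, -6.92 and -2.79). Vcl averaged 322 CPM at 24 h and 1.97 CPM at 72 h.

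Gene length and depth moved with this comparison. The exons of the 5 members called higher spanned a median of 1586 bases (719 to 2490) and those of the 16 called lower 8235 bases (2153 to 12145). Over all genes with a known length the medians were 2290 bases for those called higher, 4645 for those called lower and 4049 for those not called. In OPC cultures, by contrast, genes called higher and lower in H3.3K27M had medians of 3834 and 3694 bases. The RA libraries of 24 h held 5050115 to 22269533 counts and those of 72 h 2239137 to 3268238. Both a QuantSeq 3′ kit and a KAPA mRNA kit are named for these libraries without saying which was used where. The study describes Dox added 24 h after differentiation began and kept for 72 h. For the libraries of 24 h it does not give the hours in retinoic acid. Dox time, time in retinoic acid, any batch, kit and depth cannot be told apart in RA-treated cells.

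**Figure D4:**
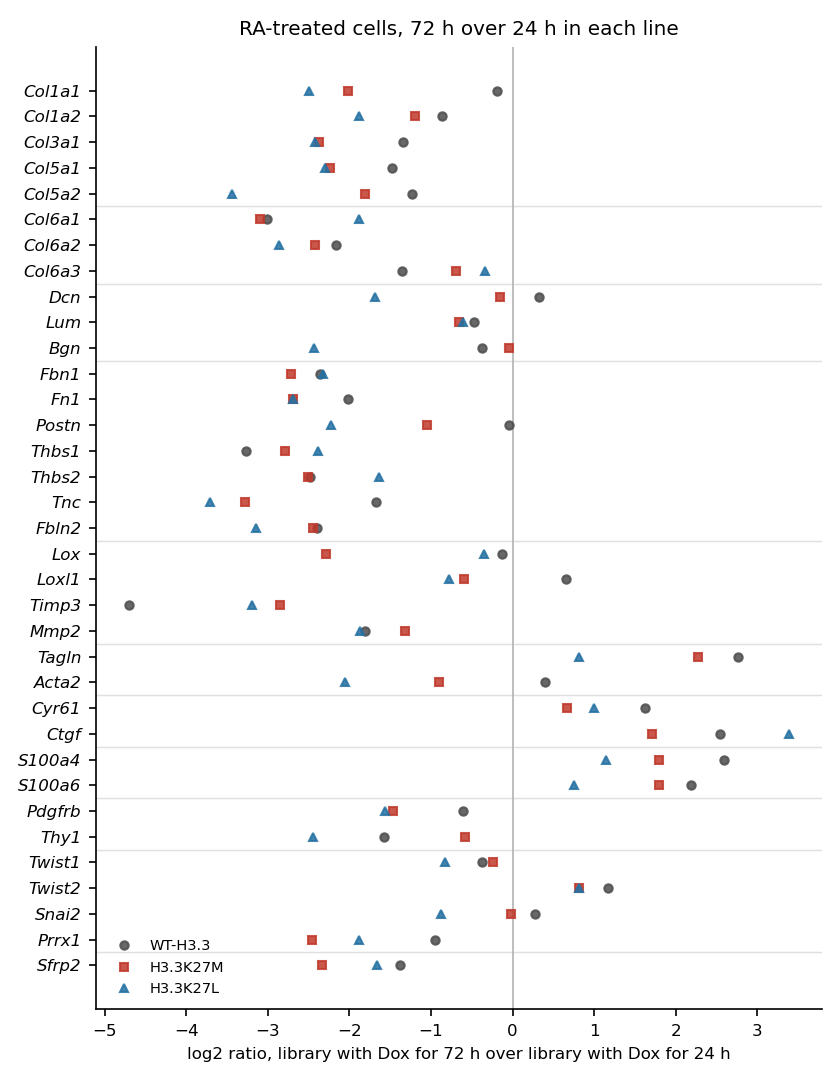
Log2 ratio of the 72 h over the 24 h library (0.5 CPM added) on the horizontal axis for each of the 35 genes, with 1 point for each of the 3 RA-treated lines. For 6 genes, Ctgf and Tagln among them, all 3 points lie above 0, and for 25 all 3 lie below it.

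Between the H3.3 lines of RA-treated cells no member passed the test that left Dox time out. That test counts the change between the Dox times as spread between replicates. It could therefore call few genes, and the lack of calls does not show equal levels. With Dox time as a block, 5 members were called lower in H3.3K27L, as given below. For H3.3K27M against WT-H3.3, 0 of 30 members were called by edgeR (0% of 12233 genes were), and 0 had an unadjusted p under 0.05 (0.114% of genes did). The median of the 30 log2 fold changes was -0.02. With Dox time as a block, 0 members were called (0.0163% of genes were). Taken by time, 6 members were lower in H3.3K27M at both times, 9 higher at both and 18 opposite, the remaining 2 having equal values at one of the times. Shares over all genes were not counted for these directions. For H3.3K27L against WT-H3.3, 0 of 30 were called as well (0% of genes), with 1 at an unadjusted p under 0.05 (1.51% of genes) and a median of -0.93. DESeq2, also without Dox time, called 0 members in either comparison.

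With Dox time as a block, 5 members were called lower in H3.3K27L (2.13% of all genes were) and 0 higher. Since the change with time was shared by the lines (Pearson's r across 9056 genes, which are not independent replicates, 0.944 between WT-H3.3 and H3.3K27M and 0.933 between WT-H3.3 and H3.3K27L), the block removes most of the spread. The 5 were Acta2 (log2 -2.16, adjusted p = 0.012), Prrx1 (log2 -1.98, adjusted p = 0.041), Col5a1 (log2 -1.34, adjusted p = 0.0055), Fn1 (log2 -1.26, adjusted p = 0.0055) and S100a6 (log2 -1.23, adjusted p = 0.027). Col5a1, for example, stood at 139 and 49.5 CPM in WT-H3.3 (24 and 72 h) and at 69.2 and 13.7 CPM in H3.3K27L. In all, 20 members were lower in H3.3K27L at both times and 4 higher at both, and the shares over all genes were not counted. Extraembryonic endoderm markers summed to 2015 to 2411 CPM in H3.3K27L and to 670 to 1195 CPM in WT-H3.3. The part of these cells in the difference was not tested.

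In ESCs most of the members were close to absent. Of the 35, 16 were tested, 18 had too few counts, and Mmp2 was left out with chromosome 8 (with it kept, its adjusted p was at least 0.40 in the 3 comparisons below). S100a4 had 0 counts in all 32 libraries. Fn1 took 81.8% to 95.7% of the summed CPM of the 35 members in a library, and the other 34 together came to 76.7 to 173 CPM. Twist2 was counted in 2 of the 32 libraries, once each, and Tnc had at most 3 counts in any group of 8 libraries.

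In H3.3K27M ESCs no member was called against WT-H3.3 (0 of 16, against 0.0143% of 14012 genes), averaged over the 4 Dox times. At an unadjusted p under 0.05 there were 3, Timp3, Ctgf and Twist1 (11.5% of genes reached it). DESeq2 called 0 members as well. The replicate numbers pair these 2 lines, and with replicate number as a block 0 members were called (0.164% of genes were). Fn1 was higher in H3.3K27M in 8 of 8 pairs of the same time and number (log2 0.30, SE 0.20, adjusted p = 0.59), with a lowest, median and highest level of 696, 1193 and 1652 CPM in WT-H3.3 and 770, 1577 and 2078 CPM in H3.3K27M. Ctgf was lower in 8 of 8 pairs (log2 -0.65, SE 0.27, adjusted p = 0.34). Without the H3.3K27M library of 8 h, replicate 1, it was called (log2 -1.01, adjusted p = 0.033). It ran from 37.5 to 60.1 CPM (median 48.7) in WT-H3.3 and from 8.91 to 54.1 CPM (median 31.5) in H3.3K27M. Within H3.3K27M, the replicate 1 libraries held 36.3 to 54.1 CPM of Ctgf and the replicate 2 libraries 8.91 to 26.7 CPM, without overlap. S100a6 was lower in 8 of 8 pairs too (log2 -0.55, SE 0.28, adjusted p = 0.45). None of these passed the correction over all genes, and the groups overlapped. They were picked out of the 16 tested members by their pairs. The share of all genes with 8 of 8 pairs in 1 direction was not counted.

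H3.3K27L ESCs had 3 called members of 16. Pdgfrb was higher (0.628% of all genes were), and Col5a2 and Ctgf were lower (2.80% of all genes were). Pdgfrb had a lowest, median and highest level of 1.93, 3.3 and 5.78 CPM in WT-H3.3 and of 0, 7.86 and 10.5 CPM in H3.3K27L (log2 1.07, SE 0.30, adjusted p = 0.028). Its 0 is that of the library of 68378 counts. Col5a2 ran from 0.785 to 2.55 CPM (median 1.88) in WT-H3.3 and from 0 to 0.831 CPM (median 0.449) in H3.3K27L (log2 -1.81, SE 0.44, adjusted p = 0.010). Ctgf ran from 13.9 to 31.4 CPM (median 26.3) in H3.3K27L, entirely below the 37.5 to 60.1 CPM of WT-H3.3 (log2 -1.0, SE 0.29, adjusted p = 0.032). Its relative Cyr61 was not called (log2 -0.65, SE 0.26, adjusted p = 0.13). The calls of both Pdgfrb and Ctgf were lost without replicate 1 of WT-H3.3 at any of the 4 times or of H3.3K27L at 4 h. That of Pdgfrb was also lost without replicate 1 of H3.3K27L at 8 h, and that of Ctgf without replicate 2 of WT-H3.3 at 4 h, replicate 2 of H3.3K27L at 4 or 8 h or replicate 1 of H3.3K27L at 24 h. With chromosome 8 kept, Ctgf was just under the 2-fold limit (log2 -0.99) and 2 members were called. All 3 calls were lost without replicate 1 of H3.3K27L at 72 h, which leaves the library of 68378 counts alone at that time.

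With GSK343, 0 of 16 members were called by edgeR (0% of 14012 genes were), and 2, Fn1 and Thy1, had an unadjusted p under 0.05 (4.84% of genes did). Cyr61 had a lowest, median and highest level of 14.9, 30.5 and 40.2 CPM without and 25.7, 42.6 and 51.7 CPM with GSK343 (log2 0.47, SE 0.24, adjusted p = 0.97). Ctgf, at 36.7 to 56.2 CPM, overlapped the 37.5 to 60.1 CPM of untreated cells (log2 0.13, SE 0.27, adjusted p = 0.99). The 3 ESC comparisons share the WT-H3.3 libraries.

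**Figure D5:**
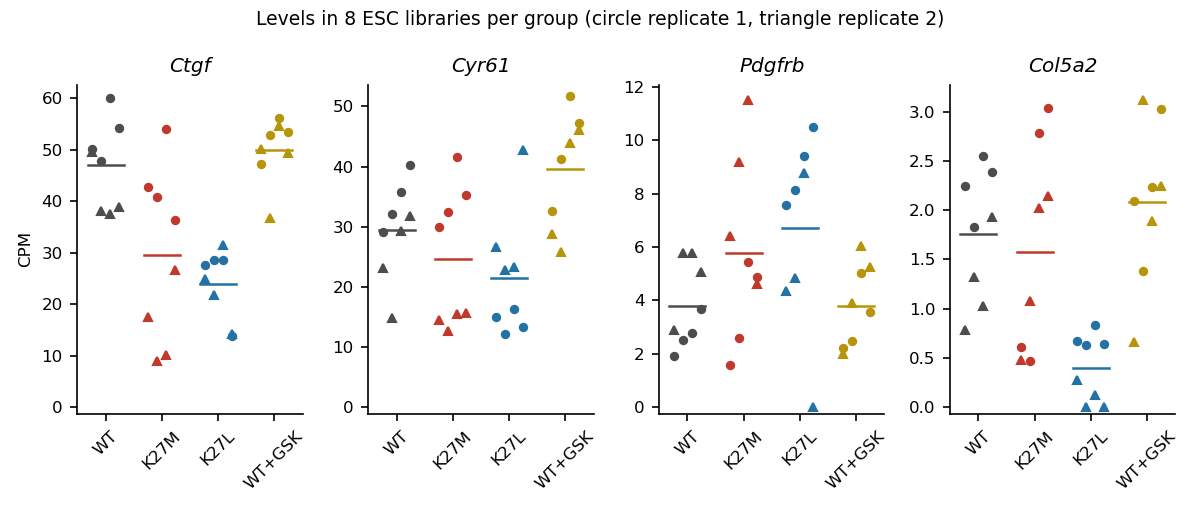
Levels in CPM (vertical axis, from 0) of Ctgf, Cyr61, Pdgfrb and Col5a2 in the 8 ESC libraries of each of the 4 groups, the last being WT-H3.3 with GSK343; circles are replicate 1, triangles replicate 2, and bars the mean of the 8. All H3.3K27L points of Ctgf lie below those of WT-H3.3, while the H3.3K27M points spread over both ranges.

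The difference between the H3.3K27M effect in OPC cultures and in ESCs was tested itself, with the libraries of 24 and 72 h. The effect was more negative in OPC cultures for 23 of 34 members (9.26% of all genes tested) and more positive for 0 (7.09% of all genes). Col1a1 had a difference of -4.93, Col6a3 of -5.05, Fn1 of -5.52, Thbs2 of -6.57 and Ctgf of -2.44 on the log2 scale. Fn1 had ample counts in both states. In H3.3K27M OPC cultures it stood at 18.2 and 18.6 CPM. In the 8 H3.3K27M ESC libraries of all Dox times it ran from 770 to 2078 CPM. Col5a1 and Cyr61 were also well counted in both states, with smaller differences of -2.04 and -4.05. Col5a1 had 1377 counts in WT-H3.3 and 932 in H3.3K27M ESCs, and 2025 and 347 in OPC cultures of these lines. The 11 not called were Col6a1, Dcn, Fbn1, Tnc, Fbln2, S100a4, Thy1, Twist1, Twist2, Prrx1 and Sfrp2. Dcn, Tnc, S100a4, Twist2 and Prrx1 had at most 5 counts in any ESC group of 8 libraries, so that the ESC effect could hardly be estimated for them. The same holds for Postn, which was called with 1 and 2 counts in WT-H3.3 and H3.3K27M ESCs (difference -5.33, SE 1.75). Other called members also had few counts in these ESCs, among them Lox (4 and 8), Bgn (9 and 9), Col3a1 (9 and 7) and Col1a2 (9 and 14). These counts cover all Dox times, and the test used only the libraries of 24 and 72 h. Postn, Lum, Lox, Thbs1, Acta2 and Col3a1 lost the call in at least 1 fit that left out a library, and 18 calls were left without the H3.3K27M ESC library of 24 h, replicate 1. The 2 states differ in culture and library as well as in time, and these cannot be told apart.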

How the data were processed

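Reads of 42 RNA-seq libraries had been aligned by the authors with STAR 2.7.1 to mm9, and the deposited values are raw counts per gene, not normalized; where a gene has several variants, the authors took the one with the highest expression. The 113 ChIP-seq samples of the series were not analysed here. Each table lists 55471 genes, of which 32589 (98.17% of counts) matched the NCBIM37 annotation, while the version numbers of the identifiers are those of a later annotation. Genes of chromosome 8 (5.85% of counts) were left out of totals and tests, as in the study, with 1435 of 2532 placed by the annotation and the rest by the order of the table. No pair of libraries was a copy (chi-square per gene at least 1.85), and 0 columns of other samples were present.

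Counts were tested in edgeR 4.0.16 (quasi-likelihood F test; limma 3.58.1, R 4.3.3) after TMM normalization and filterByExpr, with p-values adjusted by Benjamini and Hochberg over all genes tested. OPC lines were compared over 4 libraries and RA lines over 6, without Dox time, RA times with line as a block, and ESC groups in 1 model of all 32 libraries, where every group had its own mean at each Dox time. Levels are CPM scaled by TMM factors over all 42 libraries; 0.5 CPM was added before log2 ratios, and intervals and floors (95%, 3 counts) cover counting error only. Replicates are those the labels number; in OPC and RA-treated cells they are Dox times (OPC columns of 72 h, whose replicate number differs from the labels, were matched by line and time), and p-values then measure the spread between such libraries. Replicate numbers paired WT-H3.3 and H3.3K27M ESCs: the differences between replicates correlated across 8503 genes at 0.615, 0.714, 0.608 and 0.712 at 4, 8, 24 and 72 h. The lists of other genes, like the members, were chosen with earlier results of these data known. All 35 members are named; of pathway genes, up to 3 of the lowest adjusted p in each direction, of which 1 is not reported here. Alternatives changed the tool (DESeq2 1.42.0), normalization, filters (10 counts in every library, or none), chromosome 8, threshold, block and libraries, and left out each library. Crossed replicate numbers of H3.3K27L were added after seeing the data. The fits were tested on simulated data. Python 3.11.15, NumPy 2.4.6, pandas 2.3.3 and Matplotlib 3.10.9 were used.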

Additional observations from a re-analysis of the deposited data

Results flagged for a closer look

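The effect of H3.3K27M on 23 members differed between OPC cultures and ESCs by a test of the difference itself (edgeR), always with the more negative effect in OPC cultures. On the log2 scale the differences among collagens were -4.93 (Col1a1), -7.33 (Col1a2), -5.82 (Col3a1), -2.04 (Col5a1), -4.0 (Col5a2), -5.42 (Col6a2) and -5.05 (Col6a3). Among proteoglycans and glycoproteins they were -4.09 (Lum), -5.57 (Bgn), -5.52 (Fn1), -5.33 (Postn), -3.68 (Thbs1) and -6.57 (Thbs2). For genes of cross-linking and turnover they were -5.53 (Lox), -4.14 (Loxl1) and -2.88 (Timp3). The contractile, CCN, S100, surface and transcription factor genes gave -8.91 (Tagln), -5.34 (Acta2), -4.05 (Cyr61), -2.44 (Ctgf), -4.91 (S100a6), -6.05 (Pdgfrb) and -3.64 (Snai2). Tagln had 0 counts in H3.3K27M OPC cultures, so its fitted value rests on the prior count and is no bound. For Postn, Lox, Bgn, Col3a1 and Col1a2, among others, the ESC side of the difference rests on few counts.

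Among 68 groups of 8 ESC libraries, 5 held a library far from the other 7, where chance would give about 1 in 20. Col1a1 was at 5.34 CPM in WT-H3.3 at 24 h, replicate 1, with the next at 1.5 CPM, and at 2.91 CPM in H3.3K27M at 24 h, replicate 1, with the next at 1.14 CPM. S100a6 was at 8.38 CPM in WT-H3.3 at 24 h, replicate 1, with the next at 4.10 CPM. Cyr61 was at 42.7 CPM in H3.3K27L at 72 h, replicate 2, the library of 68378 counts, with the next at 26.6 CPM. In that library 121 counts of Fn1 came to 1722 CPM, so that few counts lie behind this level of Cyr61. Ctgf was at 36.7 CPM with GSK343 at 8 h, replicate 2, and the others lay at 47.2 to 56.2 CPM.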

How the results depend on the processing

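The number of members called stayed within 1.5 times its value in most of the alternative fits. With at least 10 counts required in every library it was 17 in place of 31 for the OPC lines (19 tested), 7 in place of 32 for WT-H3.3 OPC cultures against ESCs (9 tested), 7 in place of 24 for RA-treated WT-H3.3 cells against ESCs (8 tested), 5 in place of 23 for the difference between states (7 tested) and 0 in place of 3 for H3.3K27L ESCs (1 tested), since members low in either group leave the test. For H3.3K27L ESCs it was also 0 with the 24 and 72 h libraries only, and the cause was not tested. Leaving out 1 library gave 29 to 32 members for the OPC lines, 19 to 25 for RA times, 0 to 1 for H3.3K27M ESCs, 0 to 3 for H3.3K27L ESCs, 32 to 33 and 21 to 25 for OPC and RA-treated WT-H3.3 cells against ESCs, and 18 to 23 for the difference between states. In RA lines and with GSK343 it gave 0 throughout. Of 2143 log2 fold changes refitted for named members, 2059 kept both direction and side of the threshold, 56 lost and 17 gained the call, and 11 changed sign. Of the latter, Pdgfrb in H3.3K27L ESCs was called before (range over left-out libraries -1.27 to 1.26, the lowest with an SE of 6.24, without replicate 1 at 72 h). The others had not passed the test. Sfrp2 in RA-treated WT-H3.3 cells against ESCs became -0.035 with DESeq2, -0.013 with median-of-ratios size factors, -0.089 without a filter and -1.15 to 0.44 over left-out libraries. For RA times Acta2 ranged from -1.11 to 0.13. For H3.3K27L against WT-H3.3 in RA-treated cells, Fn1 ranged from -2.76 to 0.078 and S100a6 from -2.42 to 0.086.

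With the replicate number as a block (Dox time in RA-treated cells and OPC cultures), 5 members in place of 0 were called for H3.3K27L in RA-treated cells, as given above. For the OPC lines 32 were called, for the difference between states 22, for WT-H3.3 OPC and RA-treated cells against ESCs 32 and 24, for H3.3K27L ESCs 3, and for the remaining line comparisons 0. Without the line block, RA times had 20. Between WT-H3.3 and H3.3K27L ESCs the replicate differences correlated at -0.598, -0.707, -0.676 and 0.262 (4, 8, 24 and 72 h), and with the numbers crossed at the first 3 times, which was chosen after seeing the data, 3 members were called. With GSK343 the correlations were 0.0074, -0.296, -0.460 and 0.587, and between the OPC lines 0.278 from a single pair, so these numbers were not taken to pair the libraries.

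Over all genes the counts of calls also moved. With 10 counts required they were 2309 in place of 3482 (OPC lines), 5653 in place of 10196 and 2403 in place of 4704 (WT-H3.3 OPC and RA-treated cells against ESCs), 1551 in place of 2447 (difference between states) and 0 in place of 481 (H3.3K27L ESCs). In H3.3K27M ESCs 2 genes became 152 without a filter, 9 with DESeq2, 23 with the block, 82, 131 and 23 without replicate 1 of H3.3K27M at 4, 8 or 24 h, and 0 to 2 in the other fits. In H3.3K27L ESCs 481 became 750 without a filter, 71 at 24 and 72 h only and 117 without replicate 1 at 72 h. In RA-treated H3.3K27L cells 0 became 445 with the block, 5 with DESeq2 and 7 without a filter, in those of H3.3K27M 0 became 2 with the block, and with GSK343 0 became 26 without a filter. With no fold threshold 3482 became 6423 (OPC lines), 4924 became 8171 (RA times) and 481 became 1141 (H3.3K27L ESCs). In ESCs 18 of 35 members had too few counts to test.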

Other observations

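In H3.3K27L ESCs, 4 genes of the pathway lists were called beside the members (0.628% of all genes were called higher and 2.80% lower). Loxl3, a lysyl oxidase, averaged 1.85 ± 1.05 CPM against 0.907 ± 0.449 CPM in WT-H3.3 (SD, n = 8 each, log2 1.24). The filamin Flnc averaged 5.56 ± 2.91 against 3.15 ± 1.19 CPM (log2 1.05), and the TGF-beta receptor Tgfbr2 2.45 ± 1.85 against 1.34 ± 0.524 CPM (log2 1.07). Efemp1, a fibulin, was called lower (log2 -1.15), although H3.3K27L had a mean of 2.54 ± 4.73 CPM and WT-H3.3 one of 2.09 ± 0.648 CPM, so that the fitted change and the means differ in sign. The H3.3K27L mean includes the library of 68378 counts. There 121 counts of Fn1 came to 1722 CPM, so that a single count weighs heavily in a mean of CPM. Among pathway genes whose H3.3K27M effect differed between OPC cultures and ESCs, those of the lowest adjusted p were Eln, Tead2 and Ltbp4 (log2 differences of 4.73, 1.35 and 1.56) and, with the opposite sign, Loxl2, Nid1 and Actn1 (-6.77, -5.40 and -2.66). Loxl2 averaged 40.3 CPM in WT-H3.3 and 1.04 CPM in H3.3K27M OPC cultures, and Nid1 62.6 and 1.98 CPM.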
